A study of Mus musculus with 2 samples.

Results

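Some droplets of this spinal cord experiment carried a cell barcode with a usable number of UMIs (unique molecular identifiers, one per captured transcript) and almost none from the mitochondrial genome. They were taken as the barcodes of the 2 per-library tables that the authors' table of all kept cells does not list and in which genes starting with mt- gave under 1% of UMIs. The uninjured library held 87 such barcodes of 876, or 9.93% (exact binomial 95% interval 8.03 to 12.1), and the injured library 237 of 1566, or 15.1% (13.4 to 17.0). They made up 87 of the 165 uninjured and 237 of the 338 injured barcodes absent from the kept table, and 324 of 2442 barcodes in all. They were set against the EpA cells of their own library, the ependymal cells that the study was about, which numbered 555 and 1004. Below they are called low-mitochondrial barcodes.

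Both groups were adult C57BL/6J mice of at least 12 weeks carrying Troy-CreERT2+/- and Rosa26-tdTomato, in which a Cre driven from the Troy gene switches on the red fluorescent protein tdTomato. One group was uninjured and the other was taken on day 3 after the dorsal funiculus, a fibre tract at the back of the cord, had been incised. Segments of 5 mm were dissociated with papain, passed through a 70 µm filter, freed of much myelin on sucrose and sorted for tdTomato before droplet capture. Each condition was 1 library, and how many animals it pooled is not given in the sources used here, so nothing below has a replicate check and no difference between groups was tested. The injury and the library cannot be told apart.

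Ependymal cells form the lining of the cord's central canal and move its fluid with motile cilia. Within a cell, RNAs have addresses: Malat1, Neat1, Meg3 and Kcnq1ot1 are long noncoding RNAs that stay in or near the nucleus, mt- transcripts are made and kept inside mitochondria, messengers of ribosomal and many other soluble proteins are translated in the cytosol, and messengers of secreted and membrane proteins are translated on the endoplasmic reticulum. Mature mammalian red cells have neither nucleus nor mitochondria, and platelets have no nucleus.

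The low-mitochondrial barcodes were shallow. Their median was 1346 UMIs in the uninjured library (range 732 to 6124) and 1746 in the injured one (728 to 22691), against 11387 and 20158.5 in EpA cells. They held 156680 and 660246 UMIs, or 1.64% and 1.96% of the UMIs of their libraries, against 7689179 and 25296289 in EpA cells. Median genes per barcode were 768 and 874, against 3574 and 4790.5. When each barcode was thinned to 500 UMIs, the median was 362 and 349 genes, close to the 348 and 360 of EpA cells, and above the 279.5 and 257 of the other discarded barcodes. At equal depth these barcodes thus held about as many different genes as EpA cells did. The 2 libraries shared 18 barcode sequences, and 0 of them were low-mitochondrial.

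The mitochondrial share chose these barcodes, so its values are a description. The median was 0.0618% without and 0.0331% with injury, against 11.2% and 6.76% in EpA cells, and 28 of 87 and 98 of 237 had no mt- UMI at all. The highest low-mitochondrial barcodes had 0.921% and 0.996%, and 5 and 12 lay between 0.5% and 1%. The next discarded barcodes had 9.61% and 4.04% and were deep, with 55182 and 263269 UMIs, and all the others had at least 20.1%. Kept cells ran from 1.01% to 19.9%. No discarded barcode lay between 1% and 4.04%, while 6 uninjured and 23 injured kept cells had 1% to 2%.

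RNAs that stay in the nucleus, which the choice did not use, were low in the same barcodes. A list of such RNAs made up 0.509% of their summed UMIs in the uninjured library, with an exact Poisson interval of 0.475 to 0.546 that, like all intervals here, covers counting error only. It made up 6.91% in EpA cells, so the sum was 13.6-fold lower (12.7 to 14.6). After injury the list gave 0.370% (0.355 to 0.385) against 4.33%, which is 11.7-fold lower (11.3 to 12.2). Most of this was Malat1, on the minus strand at chr19:5795690-5802672 (GRCm38), which fell from 68061 CPM (counts per 1000000 UMIs) in EpA cells to 5036 CPM in uninjured and from 42414 to 3614 CPM in injured low-mitochondrial barcodes. The median barcode was lower still, with 0% and 0.0393% of its UMIs from the list, against 6.73% and 5.24% in EpA cells.

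**Figure D1:**
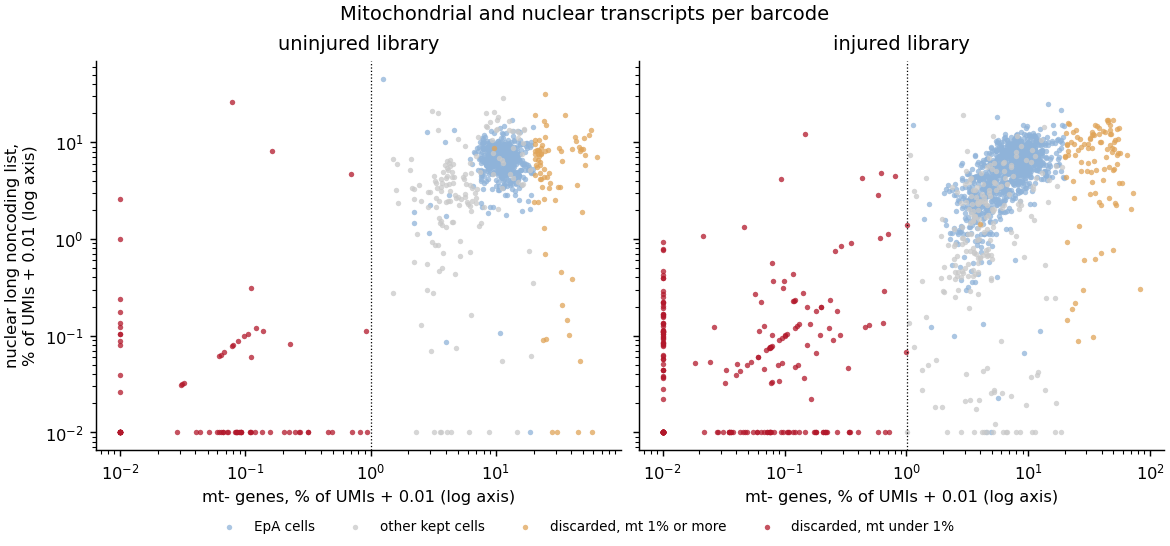
Percent of each barcode's UMIs, plus 0.01 on log axes, from mt- genes (horizontal) and from the nuclear long noncoding list (vertical), 1 point per barcode, for the uninjured library (87 low-mitochondrial barcodes in red, 555 EpA cells in blue) and the injured one (237 and 1004), with other kept cells in grey, other discarded barcodes in orange and a dotted line at 1% mt-. The low-mitochondrial barcodes, chosen on the horizontal axis, lie mostly at the bottom of the vertical axis, and 4 and 6 of them reach 2% or more.

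Malat1 was also rarer at equal depth. At 500 UMIs per barcode, Malat1 was seen in 15 of 87 uninjured (17.2%; 9.98 to 26.8) and 78 of 237 injured low-mitochondrial barcodes (32.9%; 27.0 to 39.3), against 99.5% and 99.2% of EpA cells. The other discarded barcodes, with at least 1% mt-, showed it in 91.0% and 98.0%. Without thinning the shares in low-mitochondrial barcodes were 33.3% and 57.8%. Malat1 was the most abundant gene in 528 of 555 and 871 of 1004 EpA cells, but in 2 of 87 and 5 of 237 low-mitochondrial barcodes. Their most abundant gene was most often Gm42418 in the uninjured library, in 42 barcodes, and Tmsb4x in the injured one, in 50.

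The other measured RNAs of the list were low as well. Meg3, an imprinted RNA at chr12:109541001-109571726 on the plus strand, was at 25.5 against 649 CPM (uninjured) and 30.3 against 347 CPM (injured). Kcnq1ot1, an imprinted antisense RNA at chr7:143203458-143296549 on the minus strand, was at 12.8 against 269 and 15.2 against 225 CPM. Neat1, the scaffold of nuclear paraspeckles at chr19:5824708-5845478 on the minus strand, was at 25.8 against 245 CPM in the injured library, and too few UMIs were expected for it in the uninjured one. By the size rule (at least 100 CPM in either set, a 2-fold difference and at least 20 UMIs seen or expected), 3 of 3 measured list members were lower without injury and 4 of 4 after it. Long noncoding genes as a class went both ways. In the uninjured library 4 of 25 measured were lower and 10 higher, at a median log2 of 0.80 against 0.46 over all genes. In the injured library 5 of 14 were lower and 3 higher, at 0.24 against 0.14. Over all genes the same rule called 13.4% lower in the uninjured library (205 of 1532) and 11.7% in the injured one (206 of 1759), and 14.2% (217) and 6.37% (112) higher. These counts depend on the total that values are scaled to. Scaling to the total without mt- genes moved the median of all genes by -0.22 (log2) in the uninjured library and gave 99 higher and 264 lower, and TMM scaling moved it by -0.35 and gave 66 and 319. The higher share of calls went from 51.4% to 27.3% and 17.1%. For the injured library the median moved by -0.11 and 0.04, and the share stayed between 30.5% and 38.4%.

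A few barcodes carried most of the nuclear RNA that was left. The list reached 2% of UMIs in 4 uninjured and 6 injured low-mitochondrial barcodes, and these held 94.7% and 72.6% of the Malat1 UMIs with 5.86% and 6.58% of all UMIs. At the other end, 55 of 87 and 97 of 237 had no UMI of the list, and 16 and 42 had no UMI of either the list or the mt- genes. A nuclear share under 0.5% was found in 82 of 87 and 219 of 237 low-mitochondrial barcodes, against 3 of 555 and 16 of 1004 EpA cells. It was also found in 12 of 78 and 7 of 101 of the other discarded barcodes, and in 22 of 156 and 73 of 224 kept cells outside the EpA set, where the injured ones had a median mt- share of 3.67%. Low nuclear RNA was therefore seen without low mitochondrial RNA.

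Few EpA cells were as shallow as these barcodes, and some of those had little nuclear RNA too. Shallow EpA cells were chosen by an upper limit on UMIs alone, below which 9 in 10 low-mitochondrial barcodes of the library lay. There were 9 in the uninjured library (683 to 2078 UMIs, median 1027), and 7 of them had under 2% of UMIs in the nuclear list, with a median of 1.46% over the 9. These 9 also differed in makeup from EpA cells at large, with median shares of 0.252% for motile cilium genes and 18.0% for ribosomal protein genes. Over all uninjured EpA cells these medians were 1.98% and 8.23%. Against the 9 shallow cells the uninjured log2 difference in the nuclear list was -1.45, not -3.76. The 36 injured ones were deeper than the injured low-mitochondrial barcodes (725 to 5244 UMIs, median 3766 against 1746), so they are no match in depth. Their median nuclear share was 6.88%, and the log2 difference against them was -4.43, beside -3.55 against all EpA cells. The 6 of the 36 with under 2% all lay at 825 to 2196 UMIs and had 0% to 0.353%. At or under the median depth of the low-mitochondrial barcodes, 5 of 6 uninjured and 4 of 11 injured EpA cells had under 2% of nuclear RNA. How far depth bears on the nuclear values was not tested beyond these few cells. The part of their makeup in these values was not tested either.

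No haemoglobin UMI was counted in any of the 324 low-mitochondrial barcodes. The uninjured table lists 4 haemoglobin genes (Hba-a1, Hba-a2, Hbb-bs and Hbb-bt), and the table of the injured library only 1 of them, Hba-a1, so the injured count speaks for that gene alone. A limit of 3 counts over the sum corresponds to 0.00191% (uninjured) and 0.000454% (injured) of summed UMIs. EpA cells held 23 and 3 haemoglobin UMIs. The uninjured kept cells outside the EpA set held 1.09% of their sum in these genes, and 1 of them 68.2% of its own UMIs. The platelet list gave 17 UMIs in uninjured and 44 in injured low-mitochondrial barcodes, 1.21-fold (0.698 to 1.94) and 1.84-fold (1.33 to 2.49) the EpA share.

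Messengers of the cytosol made up a larger share. The ribosomal protein list gave 16.3% of UMIs against 8.24% in uninjured EpA cells, 1.98-fold higher (1.96 to 2.01), and 25.03% against 17.0% in the injured library, 1.48-fold higher (1.47 to 1.48). All 83 measured members were above the EpA level in each library. In the uninjured library 37 of them passed the 2-fold rule, at a median log2 of 0.98 against 0.46 over all genes, and in the injured library 1 did, at 0.55 against 0.14. In the injured main cluster described below, 73 of 83 members were above the EpA level and 41 above the median of all genes. With TMM scaling the uninjured count was 3 of 83 and the median 0.72 against 0.11 over all genes, so each member stayed above the median of all genes while the number of calls did not hold. Against the shallow EpA cells the uninjured log2 difference of the list was 0.11, and against the injured ones 2.05. Those shallow cells had median ribosomal protein shares of 18.0% (uninjured) and 5.61% (injured), against 8.23% and 14.3% in all EpA cells.

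Other soluble proteins differed less. A list of abundant cytoplasmic messengers gave 6.04% against 3.63% (uninjured) and 8.07% against 5.71% (injured). In the uninjured library 6 of 26 measured members were called higher and 0 lower (Tpt1, Fth1, Ftl1, Tmsb4x, Tmsb10 and Cst3), where 14.2% of all genes were higher. In the injured library 2 were higher (Fth1 and Tmsb10), near the background of 6.37%. Of the injured Tmsb10 UMIs 88.8% lay in the endothelial-like cluster described below. The median log2 of the list was 0.53 in the uninjured library, against 0.46 over all genes, with 14 of 26 above the latter. After injury it was 0.34 against 0.14, with 20 of 26 above. In the injured main cluster described below it was 0.092 against 0.23, with 8 of 26 above. Fth1, the heavy chain of the iron store ferritin, was at 13122 against 4761 CPM without injury and 10140 against 4384 CPM with it, and in the main cluster described below its log2 difference was 1.56 and 1.36. Cst3 was in this list although it encodes a secreted protease inhibitor. It was at 4519 against 1021 CPM in the uninjured library, but 336 of its 708 UMIs came from 1 barcode. In the uninjured main cluster its log2 difference was -1.41. Commonly used reference messengers differed less: Actb gave 1685 against 1356 and 4904 against 4083 CPM, and Gapdh 1385 against 1557 and 2046 against 1856.

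Mitochondrial proteins encoded in the nucleus did not follow the transcripts made inside mitochondria. The list of nuclear-encoded oxidative phosphorylation genes gave 3.39% of UMIs against 2.28% in the uninjured library and 3.06% against 2.70% in the injured one. By the size rule 11 of 66 measured members were higher and 0 lower in the uninjured library, and 1 of 70 (Ndufa8, a subunit of complex I) was higher in the injured one. These counts are near the background of 14.2% and below that of 6.37%, and the list medians of 0.63 and 0.18 (log2) stood beside 0.46 and 0.14 over all genes, so the list lay close to the other genes. With TMM scaling the uninjured count was 1 of 70 higher and 1 lower. Ndufa8 was at 294 against 138 CPM and 370 against 162 CPM. The mt-Cytb transcript of complex III was at 140 against 14862 and 95.4 against 7070 CPM by the choice itself.

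Messengers translated on the endoplasmic reticulum, and those for splicing proteins, had lower medians than all genes. The endoplasmic reticulum and secretory list gave 0.380% against 0.508% (uninjured) and 0.573% against 0.635% (injured). In the uninjured library 7 of 17 measured members were lower and 0 higher, where 13.4% of all genes were lower. In the injured one 3 of 20 were lower (Hsp90b1, Pdia4 and Ssr3) and 1 higher (Serp1), where 11.7% of all genes were lower. The list's median log2 was -0.82 against 0.46 over all genes in the uninjured library and -0.29 against 0.14 after injury, and its summed share in the injured library was level with that of the shallow EpA cells (log2 0.022). Hsp90b1, a chaperone of the reticulum, was at 230 against 604 CPM and 324 against 668 CPM. The splicing and nuclear RNA-binding list had 5 of 16 lower without injury and 4 of 21 lower after it, with 0 higher in each. Over all genes 13.4% and 11.7% were lower. Pnisr was at 51.1 against 326 and 65.1 against 215 CPM, and Srrm2, a scaffold of nuclear speckles, at 153 against 353 and 159 against 360 CPM. The splicing list's median log2 was -0.52 and -0.57. The messengers of these proteins are not themselves nuclear RNAs. The medians over all genes were not matched for transcript length, with which differences also fell, as described below.

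**Figure D2:**
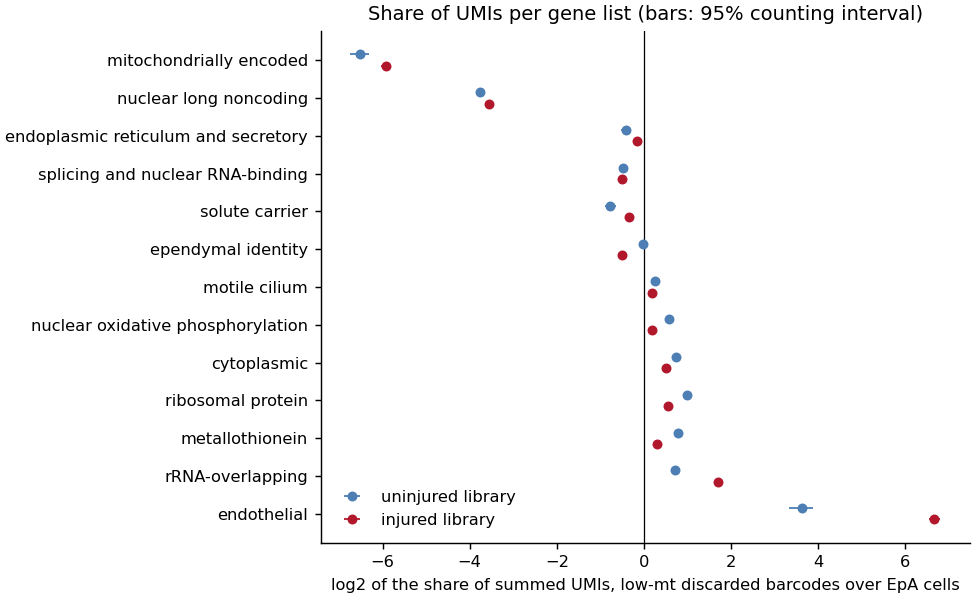
Log2 of the share of summed UMIs in each gene list, low-mitochondrial barcodes over EpA cells, for the uninjured (blue) and injured (red) library, with 95% intervals for counting error as bars. The nuclear list lies at -3.76 and -3.55 and the ribosomal protein list at 0.99 and 0.56.

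Ependymal transcripts were present. The motile cilium list gave 2.43% of summed UMIs against 2.05% in uninjured EpA cells and 0.890% against 0.780% in injured ones. In the median barcode it was 2.50% against 1.98% without injury, but 0.999% against 1.11% after it. At 500 UMIs 93.1% and 80.6% of low-mitochondrial barcodes had at least 1 cilium UMI, against 98.9% and 88.7% of EpA cells. Kept cells outside the EpA set had one in 30.1% and 37.1%. Foxj1, the master regulator of motile ciliogenesis, was seen at 500 UMIs in 19.5% of uninjured low-mitochondrial barcodes and 18.4% of EpA cells, and in 9.70% and 14.7% in the injured library. Other kept cells showed it in 0.641% and 1.34%. Without thinning, at median depths of 1346 and 11387 UMIs, the uninjured shares were 51.7% and 95.7%.

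Cilium genes did not move as one. In the uninjured library 2 of 43 measured members were called higher and 13 lower, where 14.2% and 13.4% of all genes were. In the injured library 0 of 26 were higher and 5 lower (Dnah12, Spef2, Cfap44, Cfap54 and Ccdc39), where 6.37% and 11.7% of all genes were. The list's sum in the uninjured library was above EpA cells with scaling to all UMIs (log2 0.25) and level with them under TMM (-0.00806). Ccdc153, a small cilium protein at chr9:44240676-44247306 on the plus strand, was at 2949 against 1702 and 576 against 295 CPM. Dnah12, an axonemal dynein heavy chain with a long messenger, was at 95.7 against 342 and 16.7 against 103 CPM. Cfap54 was at 102 against 351 and 34.8 against 143 CPM, and Hydin, a giant protein of the central pair, at 38.3 against 182 CPM in the uninjured library. The ependymal identity list, which holds genes such as Mia, Rarres2 and Aqp4, gave 2.92% against 2.95% and 2.20% against 3.14%, with 4 of 14 members lower in the uninjured library and 5 of 15 in the injured one. Over all genes 13.4% and 11.7% were lower.

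Log2 differences fell with transcript length. Genes other than mt- and ribosomal protein genes were grouped by the length of their protein-coding transcript in GENCODE M21. In the uninjured library the median log2 difference was 0.69 for 235 genes under 1000 bases, 0.55 from 1000 to 2000, 0.26 from 2000 to 4000, -0.19 from 4000 to 8000 and -1.13 for the 60 genes of 8000 bases or more. After injury the medians were 0.26, 0.23, 0.02, -0.32 and -1.24. Of the longest genes 34 of 60 and 45 of 71 were called lower, and 0 and 1 higher, while of the shortest 7 of 235 and 5 of 259 were called lower. The same fall from short to long held for the main cluster alone (0.79 to -1.09 and 0.51 to -1.38). Other discarded barcodes showed the opposite order against EpA cells, from -0.61 to 0.20 and from -0.86 to 0.60. Syne1, which encodes a giant protein of the nuclear envelope, was at 51.1 against 621 and 48.5 against 217 CPM.

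**Figure D3:**
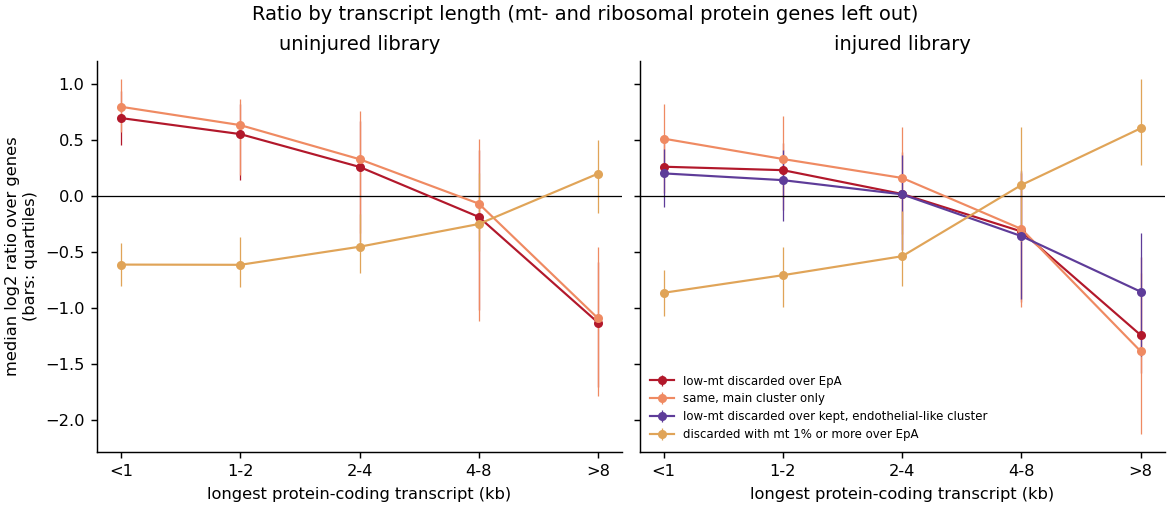
Median log2 difference over genes (vertical, bars are quartiles) by length of the longest protein-coding transcript in kb (horizontal), against EpA cells or, for the endothelial-like cluster, against its kept cells. Low-mitochondrial barcodes fall from 0.69 to -1.13 and from 0.26 to -1.24, and the other discarded barcodes rise from -0.61 to 0.20 and from -0.86 to 0.60.

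Over both libraries, 17 of 1231 genes measured in each (1.38%) were higher in both and 86 (6.99%) lower in both, 12 of them mt- genes. The 12 highest by the smaller of their 2 ratios were Cldn5, C1qa, C1qb, Ly6e, Itm2a, Tmsb10, Nuf2, Fth1, Arpc3, Cdkn1a, Ndufa8 and Rap1a. Cldn5, a tight junction protein of endothelial cells, was at 217 against 0.650 and 665 against 0.593 CPM. C1qa, a complement component made by microglia, was at 453 against 1.04 and 164 against 0.870 CPM. The whole endothelial list was 0.0874% against 0.00710% and 0.260% against 0.00255% of UMIs, and the microglial list 0.371% against 0.00516% and 0.0995% against 0.00492%. In EpA cells each list as a whole lay under the floor of 100 CPM. Its members could thus be measured only through the low-mitochondrial barcodes, and a count of those called higher would be fixed in advance. Of the 87 uninjured barcodes, 81 had no UMI of the microglial list. Cldn5 was seen in 5 uninjured and 53 injured low-mitochondrial barcodes, and 97.1% and 100% of its UMIs lay in an endothelial-like cluster that held 88 of the 237 injured ones. C1qa was seen in 2 and 14 barcodes, with 100% and 95.4% of its UMIs in a microglia-like cluster. In the main cluster only Nuf2, Fth1 and Cdkn1a of the 12 were still called higher in both libraries. Nuf2, a kinetochore protein, was at 485 against 168 and 136 against 58.4 CPM, and Cdkn1a, the cell cycle inhibitor p21, at 166 against 78.7 and 135 against 47.8 CPM. Against the shallow EpA cells Cdkn1a was lower in the uninjured library (log2 -1.61) and Nuf2 in the injured one (-0.41).

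The 12 lowest were Kcnq1ot1, Malat1, Meg3, Fos, Rmst, Ogt, Ncam1, Gpm6b, Cpd, Syne1, Dner and Wls. Fos, an immediate early transcription factor, was at 51.1 against 834 and 100 against 877 CPM. Ogt, the enzyme that puts N-acetylglucosamine on nuclear and cytosolic proteins, was at 44.7 against 277 and 19.7 against 130 CPM. Ncam1 (25.5 against 292 and 36.4 against 201 CPM), Gpm6b (19.1 against 173 and 39.4 against 188), Dner (44.7 against 289 and 30.3 against 135) and Wls (25.5 against 278 and 63.6 against 275) encode membrane proteins. Rmst, a long noncoding RNA, was at 31.9 against 228 CPM in the uninjured library and rested on 2 UMIs in the injured one. Against the shallow EpA cells of the injured library, Fos was higher in low-mitochondrial barcodes (log2 0.42).

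**Figure D4:**
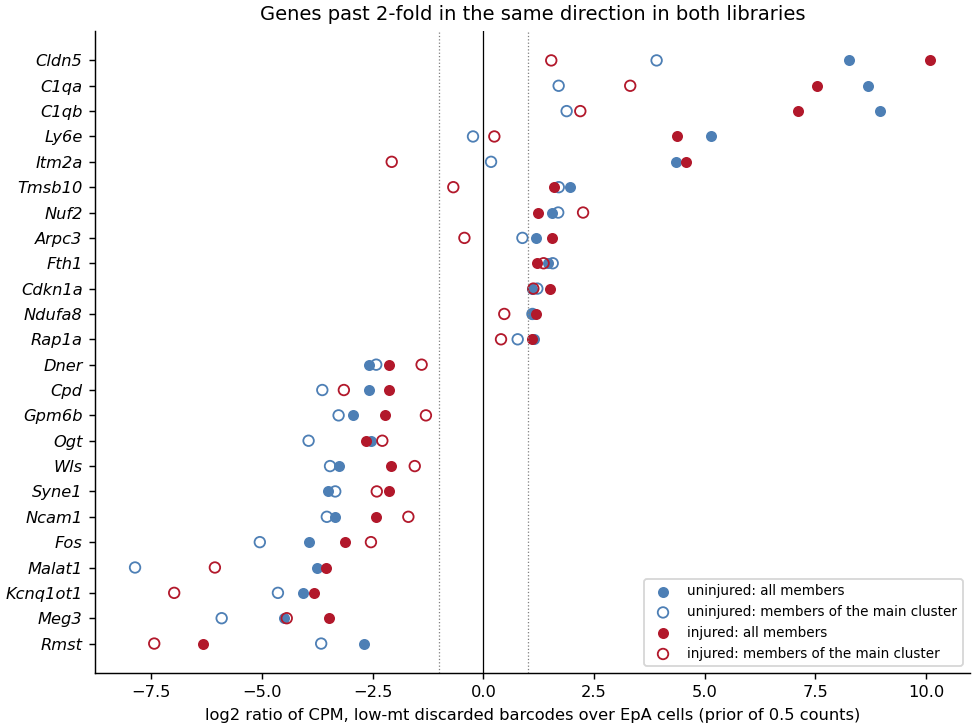
Log2 ratio of CPM, low-mitochondrial barcodes over EpA cells with 0.5 counts added, for the 12 highest and 12 lowest genes, with filled points for all such barcodes and open points for the main cluster described below, uninjured in blue and injured in red. Dotted lines mark 2-fold. Malat1 lies at -3.76 and -3.55, and the open points of Itm2a, Tmsb10 and Arpc3 in the injured library lie left of 0.

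Transcripts that overlap ribosomal RNA repeats were also higher. Gm42418, AY036118 and Lars2 lie in this list, and reads of ribosomal RNA can be assigned to the first pair. They were named after their values were seen. Gm42418, at chr17:39846958-39848788 on the plus strand, was at 37867 against 23599 CPM in the uninjured library and 19175 against 6075 CPM in the injured one. The list gave 4.24% against 2.57% and 2.16% against 0.669% of UMIs, and 1 of 3 and 3 of 3 members were called higher. Against the other discarded barcodes of the injured library Gm42418 was level (log2 -0.077). The metallothioneins Mt1, Mt2 and Mt3, also chosen after their values were seen, gave 3.43% against 1.97% in the uninjured and 1.44% against 1.16% in the injured library.

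The sort marker was at the EpA level. The tdTomato transcript was at 798 against 645 CPM (uninjured) and 2052 against 1716 CPM (injured). In the main cluster described below its log2 difference was 0.15 (uninjured) and -0.48 (injured). At 500 UMIs it was seen in 34.5% of 87 and 53.6% of 237 low-mitochondrial barcodes, and in 29.4% and 49.8% of EpA cells. Other kept cells, which include immune and endothelial cells, showed it in 25.6% and 48.7%, so at this depth the transcript did not separate cell types.

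Joint clustering of all 2442 barcodes, with mt- genes left out, put 208 of the 324 low-mitochondrial barcodes in 1 cluster of 234. It held 78 of the 87 uninjured and 130 of the 237 injured ones, with 11 EpA cells, 14 other kept cells and 1 other discarded barcode. Its median was 1411 UMIs, its top genes by fold (Nrcam, Dcaf17, Nuf2, Gm29538, AY036118) were no ependymal markers, and it was given no cell type name. Its low-mitochondrial barcodes had 2.68% and 1.82% of UMIs in the cilium list and 3.21% and 3.86% in the ependymal list, at or above the 2.05% and 0.780% and the 2.95% and 3.14% of EpA cells. Endothelial markers were at 0.00431% and 0.00284% and microglial markers at 0.00215% and 0.00354%, with Pecam1, Cx3cr1 and Csf1r at 0 to 1 UMI.

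In this main cluster the nuclear list was at 0.0309% and 0.0659%, and Malat1 at 287 and 631 CPM. These values are below those of all low-mitochondrial barcodes, and 0 of the barcodes with 2% or more of nuclear RNA lay in it. The clustering left out mt- genes but not the nuclear list, so these values describe the cluster and are no separate support. The ribosomal protein list gave 16.7% and 19.8%, which for the injured library is close to the 17.0% of EpA cells. Over all genes 257 of 1379 (18.6%) were higher and 194 (14.1%) lower in the uninjured main cluster than in EpA cells, and 210 of 1845 (11.4%) and 190 (10.3%) in the injured one. In the injured main cluster 25 of 35 measured cilium genes were called higher and 2 lower, at a median log2 of 1.19 against 0.23 over all genes, whereas in all injured low-mitochondrial barcodes none of 26 was called higher. The 23 injured kept cells of the main cluster had 0.0466% nuclear RNA, 5.62% mt- and 36.8% ribosomal protein UMIs, and 0.182% in the cilium list.

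**Figure D5:**
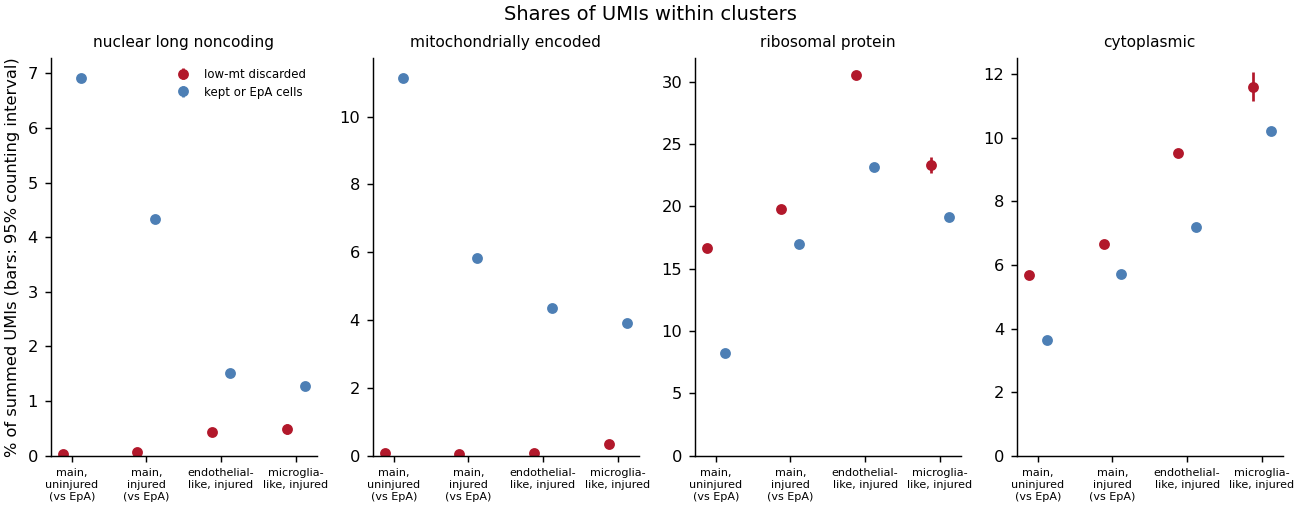
Percent of summed UMIs (vertical, linear axis from 0) in 4 gene lists for low-mitochondrial barcodes (red), beside EpA cells of the library for the main cluster and kept cells of the same cluster for the others (blue), with 95% intervals for counting error as bars. The nuclear list, which the clustering did not leave out, is lower in red than in blue in each of the 4 pairs shown. It is at 0.0309% against 6.91% in the uninjured main cluster.

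The injured library had a second large set, with endothelial markers. A cluster called endothelial-like, with Ctla2a, Cldn5, Egfl7 and Esam among its top 10 genes, held 88 injured and 4 uninjured low-mitochondrial barcodes beside 104 and 51 kept cells. The haemoglobin genes Hbb-bs and Hba-a1 were also in that top 10, though no haemoglobin UMI was counted in its low-mitochondrial barcodes. In the injured library the nuclear list was 0.437% of summed UMIs against 1.51% in kept cells, and 0.0255% against 1.08% in the median barcode. The endothelial list was 0.546% against 0.604%. Ribosomal protein genes gave 30.6% against 23.2%, cytoplasmic messengers 9.53% against 7.21% and endoplasmic reticulum messengers 0.540% against 0.953%. Malat1 was at 4313 against 14837 CPM and Cldn5 at 1410 against 961 CPM, while Pecam1 was at 193 against 520 and Flt1, a receptor of vascular growth factor, at 186 against 448 CPM. Median depth was 2529.5 UMIs against 28224.5. Over all genes 47 of 1713 (2.74%) were higher and 218 (12.7%) lower. The lower nuclear share was thus seen within a cluster at Leiden resolution 0.5. At resolution 1.0, 72 of the injured low-mitochondrial barcodes shared a cluster with only 6 injured kept cells, while 64 and 34 kept cells lay in others with 7 and 9 low-mitochondrial barcodes.

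A smaller set carried microglial markers. The cluster that holds them has S100a8, S100a9 and Ngp of neutrophils beside C1qa, C1qb, C1qc, Tyrobp, Ctss, Fcer1g and Lyz2, and held 9 injured and 2 uninjured low-mitochondrial barcodes. In the injured ones the nuclear list was 0.483% against 1.27% in the 32 kept cells and the microglial list 3.01% against 3.25%. In the 2 uninjured ones the nuclear list was 2.93% against 2.51%, so the lower value was not seen there. The remaining 13 low-mitochondrial barcodes were spread over 6 clusters, 1 to 3 in each.

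Injury went with many differences within the main cluster, between 78 and 130 barcodes. There 171 of 1818 genes (9.41%) were higher and 70 (3.85%) lower in the injured library. In EpA cells 243 of 1874 (13%) were higher and 304 (16.2%) lower. Vim, the intermediate filament of glia, was at 8307 against 1795 CPM, Tmsb4x at 8785 against 2527, Gfap at 603 against 21.5, Hspb1 at 1970 against 187, S100a6 at 1311 against 108 and Tagln, a smooth muscle and reactive glia protein, at 1084 against 64.6. Timp1 and Spp1 were at 181 and 167 CPM and had no UMI in the uninjured main cluster. Lower in the injured library were Ccdc153 (1322 against 3252 CPM), Hopx (195 against 524) and Lars2 (276 against 912). Of the 171 higher genes 65 were also called in EpA cells and 129 had the same sign, while 6 had the opposite call. Of the 70 lower genes 27 were also called, 64 had the same sign and 0 had the opposite call. These genes were named after their values were seen. All low-mitochondrial barcodes together gave 260 (13.2%) higher and 427 (21.7%) lower of 1965, but their makeup differed between the libraries, with 88 endothelial-like barcodes in the injured one against 4.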

How the data were processed

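Sorted tdTomato-positive cells of 1 uninjured and 1 injured mouse spinal cord library were profiled with a droplet kit that captures messenger RNA ends. The authors deposited raw counts of UMIs per gene and barcode, whole numbers with unequal totals, as 2 per-library tables (15624 and 16957 genes) and tables of all kept and of EpA cells; values shared between tables were identical. Per the submitters' processing notes, the tools were Cell Ranger 3.0.1 and Seurat, on the mm10 build; which gene annotation and cell filters were applied is not given in the sources used here. No row named a non-gene, and 0 columns were left unused.

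Low-mitochondrial barcodes were found by the rule in the text. UMIs were summed over barcodes, scaled to CPM, and compared with 0.5 counts added before log2. Levels carry exact Poisson, ratios exact conditional binomial and shares Clopper-Pearson 95% intervals, for counting error only. With 1 library per condition no test was run. A gene was called by size alone: at least 100 CPM in either set, 2-fold, and at least 20 UMIs seen or expected in the low-mitochondrial barcodes. A list member counted as measured under the same conditions except the fold.

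Named genes were the 12 highest and 12 lowest of those called alike in both libraries, up to 4 members per list, and fixed genes; predicted, mt- and ribosomal protein genes were only counted. Metallothionein, solute carrier, ribosomal RNA-overlapping and injury genes were chosen after their values were seen. The members and lists were chosen with earlier results of these data known. The cell type markers covered ependymal, microglial, neutrophil, lymphocyte, endothelial, mural, fibroblast, oligodendrocyte, astrocyte, neuron, Schwann, red cell and platelet genes. Clustering used 2000 variable genes without mt- genes, 20 principal components, 15 neighbours and the Leiden method at resolution 0.5 (scanpy 1.11.5). Thinning took 500 UMIs per barcode. No doublet caller was run, and doublets were not removed. Symbols were matched to GENCODE M21 (GRCm38): 16580 of 17189 genes. The size rule was tested on simulated data. R 4.3.3, edgeR 4.0.16, Python 3.11.15, numpy 2.4.6, scipy 1.17.1 and pandas 2.3.3 were used.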

Additional observations from a re-analysis of the deposited data

Results flagged for a closer look

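Slc2a1, the glucose transporter of brain endothelium that other cells carry at lower levels, went opposite ways in the 2 libraries. Against EpA cells of the same library its log2 difference in low-mitochondrial barcodes was -1.62 (uninjured) and 1.04 (injured). The difference between the libraries was not tested, since each is 1 sample. The injured set held 88 endothelial-like barcodes and the uninjured set 4, and their part in this value was not tested.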

How the results depend on the processing

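Taken as whole sets, low-mitochondrial barcodes had a lower nuclear share than the cells they were compared with under each alternative of that comparison, and the haemoglobin count stayed at 0. Within clusters, the 2 uninjured microglia-like barcodes were the exception (2.93% against 2.51%). The shallow injured EpA cells were deeper (median 3766 UMIs) than the barcodes compared with them. The shallow uninjured ones differed in makeup, with a median ribosomal protein share of 18.0% against 8.23% in all uninjured EpA cells. The size of the nuclear difference varied, and its main-cluster values come from a clustering that did not leave out the nuclear list. In the uninjured library the log2 difference of -3.76 was -4.12 with mt- under 0.5%, -3.93 without mt- genes in the total, -4.02 with TMM, -3.61 in barcodes of at least 1000 UMIs, -7.81 in the main cluster and -1.45 against shallow EpA cells. In the injured library -3.55 became -4.37, -3.63, -4.49 with barcodes weighted alike, -4.39 thinned, -3.33 against all kept cells, -3.80 against other discarded barcodes, -6.04 in the main cluster and -4.43 against shallow EpA cells. The ribosomal protein difference of 0.99 in the uninjured library was 0.82 without mt- genes, 0.73 with TMM, 0.96 weighted alike, 0.94 thinned, 0.86 against all kept cells, 1.54 against other discarded barcodes, 1.02 in the main cluster and 0.11 against shallow EpA cells. In the injured library 0.56 was 0.58 with mt- under 0.5%, 0.48, 0.60, 0.68, 0.68, 0.46, 1.18, 0.22 and 2.05 in the same order, and 0.59 at 1000 UMIs or more.

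Counts of called genes moved most. Of 217 higher in the uninjured library, 99 were counted without mt- genes, 66 with TMM, 86 thinned, 788 against other discarded barcodes, 21 at 4-fold and 406 against shallow EpA cells. The 205 lower became 319 with TMM, 46 thinned, 58 at 4-fold and 870 against shallow EpA cells. In the injured library the 112 higher became 608 against other discarded barcodes, 249 at a 50 CPM floor, 404 with no floor, 54 at 4-fold, 210 in the main cluster and 567 against shallow EpA cells, and the 206 lower became 315, 468, 769, 61 and 608, the main cluster giving 190. The injured over uninjured count of 260 higher was 452 with TMM and 171 in the main cluster, and that of 427 lower was 246 weighted alike, 241 with TMM and 70 in the main cluster. Malat1 led in 3 injured barcodes, not 5, at mt- under 0.5%, and the largest cluster held 81, not 130, at Leiden resolution 1.0. The cause of these moves was not tested.

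Some directions turned. The cilium list was -0.00806 with TMM in the uninjured library and -0.92 against shallow EpA cells in the injured one, and the endoplasmic reticulum list was 0.25 against other discarded barcodes and 0.022 against shallow EpA cells in the injured one. Against all kept cells Cldn5 was -0.53 (uninjured). In the main cluster Ly6e was -0.24, Cst3 -1.41 and Spp1 -0.046 (uninjured), and Itm2a -2.07, Tmsb10 -0.68, Arpc3 -0.43, Klf2 -0.28, H1f0 -0.086 and Ctla2a -0.86 (injured). Against shallow uninjured EpA cells Itm2a was -1.11, Tmsb10 -0.31, Arpc3 -1.60, Cdkn1a -1.61, Tmsb4x -1.60, Spp1 -2.01, Dner 0.031, Dnah5 0.65, Dnah12 1.08, Slc1a3 0.37, Pnisr 0.21, Tmem212 0.49 and Slc38a1 0.52. Those 9 cells had a median cilium share of 0.252%, against 1.98% in all uninjured EpA cells. Its part in the turned cilium genes Dnah5, Dnah12 and Tmem212 was not tested. Against shallow injured EpA cells Nuf2 was -0.41, Lars2 -0.37, Fos 0.42, Uchl1 0.72, Btg2 0.12, Top2a 1.57, H2afx 1.05, Vim 1.06 and Crym 2.54. Against other discarded injured barcodes Gm42418 was -0.077, Lars2 -0.88, Stmn2 0.15 and Uchl1 0.049. The main-cluster and shallow-cell comparisons were chosen after seeing the data.

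Each condition is 1 library, so no library could be left out and nothing measures variation between animals. No paired analysis was possible because each group holds 1 library and no test was run. At about 1346 and 1746 UMIs a barcode, single barcodes cannot show whether a gene at low level is absent, and rates above rest on sums.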

Other observations

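Membrane transporters were among the genes with lower shares. The solute carrier list, chosen after its values were seen, gave 0.347% of UMIs in uninjured low-mitochondrial barcodes against 0.591% in EpA cells, with 5 of 10 measured members lower and 1 higher, and 0.435% against 0.555% in the injured library, with 4 of 10 lower and 1 higher. Over all genes, not matched for transcript length, 13.4% and 11.7% were lower. Slc4a4, a sodium bicarbonate cotransporter, was at 19.1 against 146 CPM in the uninjured library, and Slc38a1, an amino acid transporter, at 63.8 against 267 and 51.5 against 222 CPM. Gja1, the gap junction protein connexin 43, was at 57.4 against 236 and 56.0 against 224 CPM, and Slc1a3, a glutamate transporter, at 57.4 against 188 and 24.2 against 167 CPM.

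Mitotic genes in the injured library were lower as a list, at 1.85-fold (1.70 to 2.03) below EpA cells. Over all injured low-mitochondrial barcodes 3 of 6 measured members were called lower, at a median log2 of -1.16, where 11.7% of all genes were. In the injured main cluster 6 of 6 were, at -3.77, where 10.3% of all genes were. Top2a, a topoisomerase of dividing cells, was at 65.1 against 178 CPM and Cenpf at 24.2 against 170 CPM, while Birc5 was at 139 against 114 CPM. Crym was at 129 against 1115 CPM. Against the shallow injured EpA cells both directions turned, with Top2a at 1.57 and Crym at 2.54 (log2). Bpgm, an enzyme of red cells that other cells also carry, was at 139 against 30.4 CPM, with haemoglobin at 0.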
